A study of Homo sapiens with 6 samples.

Results

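The genes described here encode the kinases and scaffold proteins of the JNK cascade. They were chosen as the rows of the deposited count table whose gene name was one of 10 listed members, and all 10 of 20333 gene intervals were found with well over 10 counts in every library. T47D cells were used, an established line of luminal breast cancer that is labelled estrogen receptor positive and HER2 negative and was kept in growth factor-complete medium. Nascent RNA was sequenced by precision nuclear run-on (PRO-seq): cells are permeabilised, polymerases that are on a gene at that moment are allowed to run on, and only the RNA made there is read. Cells received for 5 h either DMSO, the solvent control, or 500 nM GDC0068, a catalytic inhibitor of the AKT kinases, or 100 nM INY-05-040, a compound that leads to AKT degradation and that the labels call Degrader. Each of the 3 arms had 2 libraries from 2 independent experiments. All cells came from 1 line, so no other breast cancer is represented.

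JNK signalling is a stress-activated branch of the MAP kinase network. MAP3Ks such as MAP3K1, MAP3K5 (ASK1) and MAP3K11 (MLK3) phosphorylate the MAP2Ks MAP2K4 and MAP2K7, and these phosphorylate the JNK kinases, which are encoded by MAPK8 (JNK1), MAPK9 (JNK2) and MAPK10 (JNK3). MAPK8IP1 (JIP1) and MAPK8IP3 (JIP3) are scaffolds that hold these kinases together. The activated JNK kinases phosphorylate transcription factors such as JUN and ATF2. The cascade is driven by phosphorylation of proteins that are already present, which PRO-seq does not measure, and AKT is known to phosphorylate and restrain some of its upstream kinases. MAPK8 and MAPK9 are transcribed in most tissues, whereas MAPK10 is best known from neurons.

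The 6 libraries held between 25371819 and 32192576 counts, and 19902 intervals were tested. The 8 luminal markers, among them ESR1 and GATA3, summed to 5110 to 5480 CPM (counts scaled to library size) in every library. TFF1, also among the 8, was low, with means of 5.82 CPM in DMSO, 4.99 with GDC0068 and 4.41 with Degrader. Sums of markers were not scaled to interval length. The basal markers MYLK and ACTA2 summed to 34.7 to 42.2 CPM. KRT5, KRT14 and TP63 were also looked up and had no interval among those counted. The lowest count of any cascade member in any library was 796, for MAPK8IP1, which carries a counting error of 3.54%. Values are given as CPM scaled by TMM library sizes, as mean ± SD over the 2 libraries of an arm. A gene was called when its edgeR quasi-likelihood adjusted p was under 0.05 over all genes tested. Nothing in the labels says whether the 2 libraries of an arm were also grown from separate stocks, so p-values measure the spread between these libraries. In bulk libraries, fewer transcribing cells and less nascent RNA per cell cannot be told apart.

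MAPK8 and MAPK9 encode closely related JNK kinases and have CpG-rich promoter windows at the start of their intervals. The sequences of these windows are shown for comparison. The windows are RefSeq promoter sequences of GRCh38.p14, which cover a gene's RefSeq start and run 5′ to 3′. The submitters' processing notes name hg38 and GRCh38 among the builds. The MAPK8 interval begins 3 bases downstream of that start, and the MAPK9 interval begins at it. Capitals mark TGACGT, the core of the cyclic AMP response element.
MAPK8 promoter, chr10:48306427-48306726, plus strand: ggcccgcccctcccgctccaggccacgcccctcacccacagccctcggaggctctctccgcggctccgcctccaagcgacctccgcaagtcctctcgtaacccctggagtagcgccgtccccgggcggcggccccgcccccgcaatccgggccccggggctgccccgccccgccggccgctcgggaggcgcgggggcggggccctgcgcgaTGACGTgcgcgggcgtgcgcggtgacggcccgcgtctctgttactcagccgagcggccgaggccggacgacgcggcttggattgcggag
MAPK9 promoter, chr5:180292034-180292333, minus strand: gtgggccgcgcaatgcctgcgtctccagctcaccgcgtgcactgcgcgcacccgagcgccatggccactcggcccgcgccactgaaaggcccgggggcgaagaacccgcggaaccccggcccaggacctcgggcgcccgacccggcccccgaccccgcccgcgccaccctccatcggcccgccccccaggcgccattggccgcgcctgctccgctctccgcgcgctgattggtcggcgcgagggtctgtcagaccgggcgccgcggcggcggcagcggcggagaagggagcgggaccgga
Both windows are rich in G and C, with 78.7% in MAPK8 and 78.3% in MAPK9, against a median of 58.7% over the 35116 RefSeq windows of the same length. Other RefSeq windows of MAPK9, which start inside its interval and are not shown, had 64.3% and 42.3%. TGACGT, searched on both strands, stands at position -39 of the MAPK8 window and nowhere in this MAPK9 window, and 7.98% of all windows hold it. Of the 10 members, 8 matched the RefSeq table by symbol. Some of them have several windows, so a count of members cannot be set against a share of windows. Besides MAPK8, a window of MAPK10 and one of MAPK8IP3 hold TGACGT, each time in overlapping matches on both strands. The AP-1 motif TGANTCA, present in 7.71% of all windows, occurs in another MAPK10 window, and the forkhead motif TGTTTAC, present in 3.42%, occurs in no window of a member. The RefSeq windows of MAPK10 start far inside its interval and are not shown. In the edgeR fit with a term per arm, MAPK8IP3 was not called in any comparison. With the replicate number also entered as a block, it was called with Degrader (edgeR adjusted p = 0.0306). A link between these motifs and the changes was not tested.

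Among the JNK genes themselves, MAPK8 and MAPK10 rose with Degrader and with GDC0068, and MAPK9 lay slightly lower under both without passing the test. Of the 10 members, 2 were called higher and 0 lower with Degrader, a comparison in which 15.3% of all genes tested were called, 7.39% higher and 7.88% lower. With GDC0068 it was again MAPK8 and MAPK10 that were called, both higher, where 3.58% of all genes were called, 1.70% higher and 1.88% lower. Both comparisons use the same DMSO libraries, so they are not independent of each other.

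MAPK8 (ENSG00000107643, chromosome 10, 48306680 to 48439357, plus strand, with introns and exons counted as 1 interval) stood at 87.9 and 95.8 CPM in the DMSO libraries, 104.9 and 110.3 with GDC0068, and 107.7 and 111.6 with Degrader. Every treated library lay above both controls, and the treated arms overlapped each other. The mean rose from 91.8 ± 5.6 CPM to 109.6 ± 2.8 with Degrader, a log2 change of 0.26 (SE 0.0560, edgeR adjusted p = 0.0107), or 19.4%. With GDC0068 it reached 107.6 ± 3.8 CPM, a log2 change of 0.23 (SE 0.0561, edgeR adjusted p = 0.0460). The Degrader call was lost without DMSO replicate 1 (0.19, edgeR adjusted p = 0.132) and without Degrader replicate 2 (0.22, edgeR adjusted p = 0.110). The GDC0068 call was held in none of the fits that left out 1 library, with changes from 0.16 without DMSO replicate 1 (edgeR adjusted p = 0.321) to 0.29 without DMSO replicate 2 (edgeR adjusted p = 0.0756).

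MAPK10 (ENSG00000109339, chromosome 4, 86016491 to 86594074, minus strand) had the largest change of the members in both comparisons with DMSO. It stood at 69.7 and 72.7 CPM in DMSO, 83.8 and 85.2 with GDC0068, and 86.6 and 92.3 with Degrader. The 3 arms did not overlap at all, with DMSO lowest and Degrader highest. From 71.2 ± 2.2 CPM it rose to 89.4 ± 4.0 with Degrader, by 0.33 on the log2 scale (SE 0.0537, edgeR adjusted p = 0.00242), or 25.7%. The rise with GDC0068, to 84.5 ± 0.98 CPM, was 0.25 (SE 0.0539, edgeR adjusted p = 0.0329). The Degrader call held in all 6 fits that left out 1 library (0.27 to 0.37). The GDC0068 call was lost without either DMSO library or either GDC0068 library, with changes from 0.21 to 0.28 and edgeR adjusted p-values up to 0.220.

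MAPK9 (ENSG00000050748, chromosome 5, 180236187 to 180292083, minus strand) stood at 105.5 and 103.7 CPM in DMSO, 98.0 and 102.0 with GDC0068, and 101.2 and 91.0 with Degrader. Both control libraries lay above all treated ones, though narrowly, and Degrader replicate 2 was the lowest. The log2 fold change was -0.12 with Degrader (SE 0.0575, edgeR adjusted p = 0.178) and -0.07 with GDC0068 (SE 0.0575, edgeR adjusted p = 0.574). With the replicate number as a block the Degrader difference was called (-0.12, edgeR adjusted p = 0.0278).

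**Figure D1:**
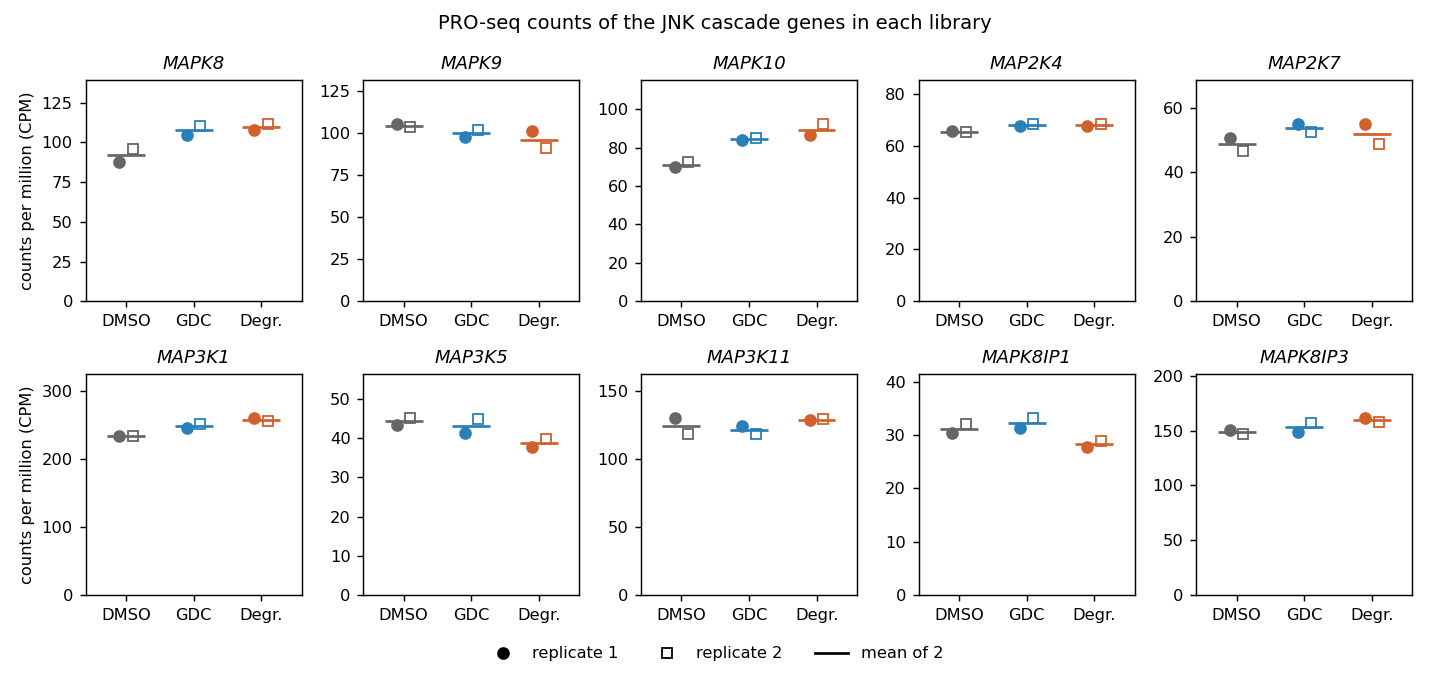
CPM (vertical axis, from 0) of the 10 JNK cascade genes in each library by arm (GDC, GDC0068; Degr., Degrader), with filled circles for replicate 1, open squares for replicate 2 and a line at the mean of the 2. MAPK8 and MAPK10 are higher in all treated libraries than in both DMSO libraries (MAPK10 at 69.7 and 72.7 CPM in DMSO and 83.8 to 92.3 CPM when treated).

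The balance between the JNK genes moved accordingly. Of all counts in the 3 JNK genes, MAPK9 held 40.1% and 38.1% in DMSO. It held 34.2% and 34.3% with GDC0068, and 34.2% and 30.9% with Degrader. MAPK10 held 26.5% and 26.7%, then 29.2% and 28.6%, then 29.3% and 31.3%. MAPK8 went from 34.3% ± 1.3 to 36.8% ± 0.33 with GDC0068 and 37.2% ± 0.99 with Degrader. MAPK9 was the largest of the 3 in DMSO and MAPK8 the largest in every treated library. These shares restate the counts above, and no permutation test with 2 libraries per arm can reach the threshold. Per kilobase of interval, MAPK9 remained the most transcribed of the 3 in every library, with 69.7% ± 1.4 of the summed density in DMSO, 65.1% ± 0.070 with GDC0068 and 63.6% ± 2.4 with Degrader.

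**Figure D2:**
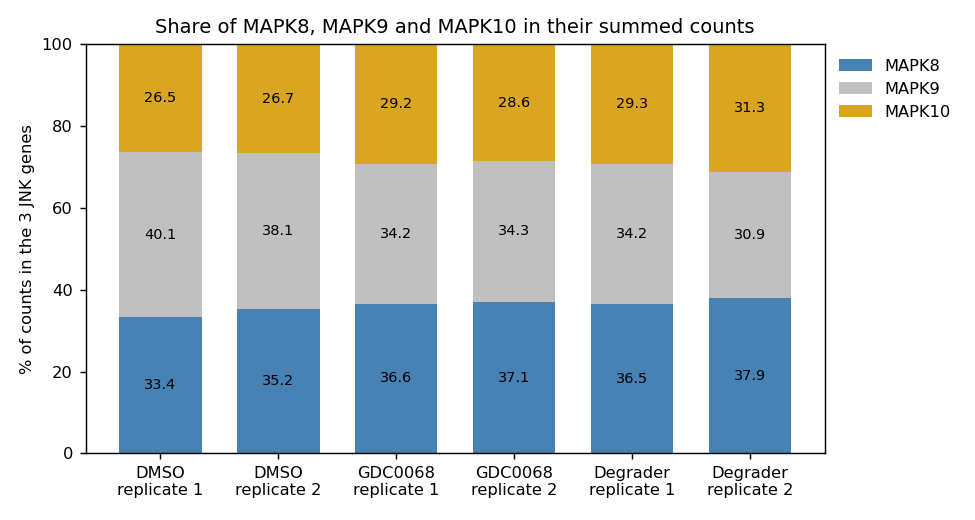
Share of MAPK8, MAPK9 and MAPK10 (colours) in the summed counts of the 3 genes, in percent, for each of the 6 libraries. The MAPK9 share is 38.1% or more in DMSO and 34.3% or less in the treated libraries.

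At the MAP2K step, neither gene was called in any comparison. MAP2K4 (chromosome 17, 12020877 to 12143828, plus strand), the kinase that also reaches p38, stood at 65.5 and 65.2 CPM in DMSO, 67.6 and 68.2 with GDC0068, and 67.5 and 68.3 with Degrader. Its libraries agreed closely, and the changes of 0.06 with Degrader (95% interval -0.05 to 0.17, edgeR adjusted p = 0.506) and 0.05 with GDC0068 (-0.06 to 0.17, edgeR adjusted p = 0.593) were not called. MAP2K7 (chromosome 19, 7903877 to 7914478, plus strand), which is specific to JNK, stood at 50.8 and 46.6 CPM in DMSO, 55.0 and 52.4 with GDC0068, and 54.9 and 48.7 with Degrader. Replicate 1 was the higher library in every arm, and the Degrader and DMSO libraries overlapped. Its change was 0.09 with Degrader (edgeR adjusted p = 0.450) and 0.14 with GDC0068 (edgeR adjusted p = 0.304).

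Of the MAP3Ks, MAP3K1 and MAP3K5 leaned in opposite directions with Degrader. MAP3K1 (ENSG00000095015, chromosome 5, 56815582 to 56896152, plus strand), a MAP3K that also carries a ubiquitin ligase domain, had the most counts of the members. It stood at 233.7 and 233.0 CPM in DMSO, 245.3 and 250.9 with GDC0068, and 259.9 and 254.7 with Degrader. The 3 arms did not overlap, with Degrader highest. The change was 0.14 with Degrader (SE 0.0489, edgeR adjusted p = 0.0735) and 0.09 with GDC0068 (SE 0.0490, edgeR adjusted p = 0.343), neither of them called. With the replicate block that of Degrader was called (0.14, edgeR adjusted p = 0.00253), and limma-voom called it too (adjusted p = 0.0452).

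MAP3K5 (ENSG00000197442, chromosome 6, 136557046 to 136792379, minus strand) encodes ASK1, the kinase that responds to oxidative stress. It stood at 43.3 and 45.1 CPM in DMSO, 41.2 and 44.7 with GDC0068, and 37.7 and 39.7 with Degrader. Both Degrader libraries lay below the other 4, and GDC0068 overlapped DMSO. The difference with Degrader was -0.19 (SE 0.0658, edgeR adjusted p = 0.0739), which was not called, and with the replicate block it was called (-0.19, edgeR adjusted p = 0.00921). With GDC0068 it was -0.04 (SE 0.0655, edgeR adjusted p = 0.795). MAP3K11 (chromosome 11, 65597757 to 65614221, minus strand), the mixed-lineage kinase MLK3, stood at 130.3 and 118.4 CPM in DMSO, 123.9 and 118.1 with GDC0068, and 128.9 and 129.2 with Degrader. Its control libraries were as far apart as any arms, and the changes of 0.05 with Degrader and -0.04 with GDC0068 were not called (edgeR adjusted p = 0.573 and 0.740).

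The scaffold genes also stayed below the threshold. MAPK8IP1 (ENSG00000121653, chromosome 11, 45885691 to 45906465, plus strand) stood at 30.3 and 32.1 CPM in DMSO, 31.3 and 33.2 with GDC0068, and 27.7 and 28.9 with Degrader. Degrader libraries were the lowest, with a difference from DMSO of -0.14 (edgeR adjusted p = 0.239) and from GDC0068 of -0.19 (edgeR adjusted p = 0.282). The interval shares 525 bases with AC068385.1 on the opposite strand, an interval with 876 to 1110 counts per library, and the use of strand in counting is not given in the sources used here. MAPK8IP3 (chromosome 16, 1705760 to 1770316, plus strand) stood at 150.4 and 147.1 CPM in DMSO, 148.8 and 156.8 with GDC0068, and 161.6 and 157.9 with Degrader. Its change with Degrader, 0.10, missed the threshold (edgeR adjusted p = 0.183), and the fit with the replicate block called it (0.10, edgeR adjusted p = 0.0306). It shares 319 bases with MIR3177 on its own strand and 31 with NME3 on the other.

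Over the 10 members the median log2 fold change was 0.07 with Degrader, with values from -0.19 to 0.33, and 0.05 with GDC0068, with values from -0.07 to 0.25. The median over all genes tested was 0.00 and 0.01. The 2 libraries of each drug did not overlap those of DMSO in 8 of 10 members with Degrader and 6 of 10 with GDC0068, against 58.6% and 50.1% of all genes tested; no test of that difference was made. The replicate block, which removes differences common to same-numbered libraries, raised the Degrader calls to 6 of 10 members, 4 higher and 2 lower, where it called 30.7% of all genes, 15.1% higher and 15.7% lower. The members added were MAPK9, MAP3K1, MAP3K5 and MAPK8IP3. With GDC0068 the block called MAPK8 and MAPK10 again and no other member, where it called 17.8% of all genes.

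**Figure D3:**
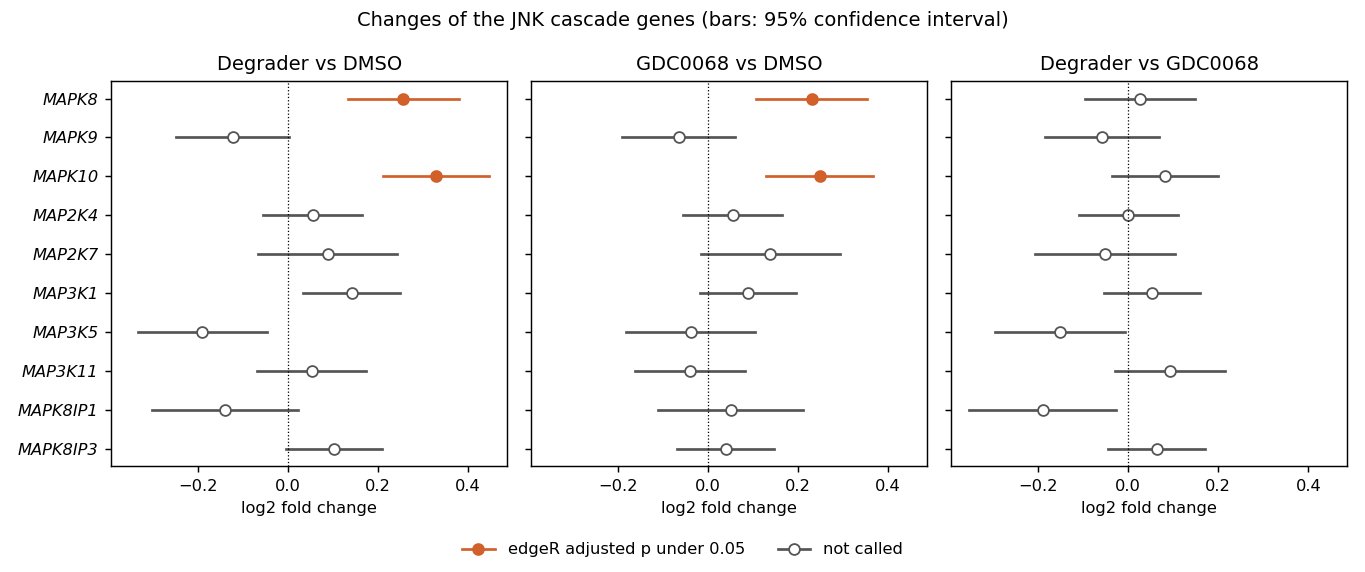
Log2 fold change (horizontal axis) of each JNK cascade gene in the 3 comparisons, with bars for the 95% confidence interval from the edgeR fit; filled orange points passed the threshold. MAPK8 (0.26 and 0.23) and MAPK10 (0.33 and 0.25) are the called genes, both against DMSO, and no gene is called between the drugs.

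The direct comparison of Degrader with GDC0068 set a compound that leads to AKT degradation against a catalytic inhibitor. The doses, 100 nM and 500 nM, were those that the submitters chose to suppress downstream signalling to a like degree. How much AKT protein was left in the cells is not among these data. edgeR called 0 of the 10 members, where 0.266% of all genes tested were called. An unadjusted edgeR p under 0.05 was found for 2 members, MAPK8IP1 and MAP3K5, and for 2811 of all 19902 genes tested. DESeq2, limma-voom and the replicate block also called 0 members, with the block calling 10.4% of all genes. MAPK8 differed by 0.03 (95% interval -0.10 to 0.15) and MAPK10 by 0.08 (-0.03 to 0.20), so a difference in MAPK10 of up to 0.20 remains possible. MAP3K5 was lower with Degrader by a log2 fold change of -0.15 (-0.30 to -0.01, edgeR adjusted p = 0.333), and MAPK8IP1 by -0.19 (-0.35 to -0.03). A miss of the threshold does not show that the drugs act alike on these genes. In 6 of 10 members the libraries of the 2 drugs did not overlap, against 45.0% of all genes.

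Levels of different genes were compared per kilobase of interval. In DMSO the order was MAP3K11 (7.55 ± 0.51 CPM per kb), MAP2K7 (4.60 ± 0.28), MAP3K1 (2.90 ± 0.0065), MAPK8IP3 (2.30 ± 0.036), MAPK9 (1.87 ± 0.023), MAPK8IP1 (1.50 ± 0.059), MAPK8 (0.692 ± 0.042), MAP2K4 (0.532 ± 0.0014), MAP3K5 (0.188 ± 0.0055) and MAPK10 (0.123 ± 0.0037). In DMSO each gene was separated from the next by more than the SDs of both. The order was the same with GDC0068 and with Degrader. With Degrader, MAP3K5 (0.165 ± 0.0059) and MAPK10 (0.155 ± 0.0070) overlapped within 1 SD. MAPK10 lay at the 4.15th percentile of all genes tested in DMSO, MAP3K5 at the 6.41st, MAP2K4 at the 18.2th and MAPK8 at the 23.7th. These densities cover the whole interval, long introns included, and do not tell a low rate of initiation from transcription of part of the interval.

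Interval length was examined beside the changes, a step chosen after their values were seen, because MAPK8 (132.7 kb) and MAPK10 (577.6 kb) are long genes, at the 92.9th and 99.7th percentile of length. Under Degrader the median log2 fold change rose with length, from -0.02 in the 8414 intervals under 10 kb to 0.04 in the 1759 intervals of 100 to 300 kb and 0.09 in the 335 over 300 kb. In the 100 to 300 kb class 15.4% of genes were called higher, and in the class over 300 kb 18.2%. Relative to the median of its own class, MAPK8 was higher by 0.22 and MAPK10 by 0.24, and they stood at the 88.5th and 90.4th percentile of the class. With GDC0068 the class medians were -0.01 and 0.02, and MAPK8 and MAPK10 stood at the 94.6th and 91.0th percentile. MAP3K5 (235.3 kb) and MAP2K4 (123.0 kb) share a class with MAPK8, and MAP3K5 lay at the 10.3rd percentile of it with Degrader. The part of length in these changes was not tested further.

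**Figure D4:**
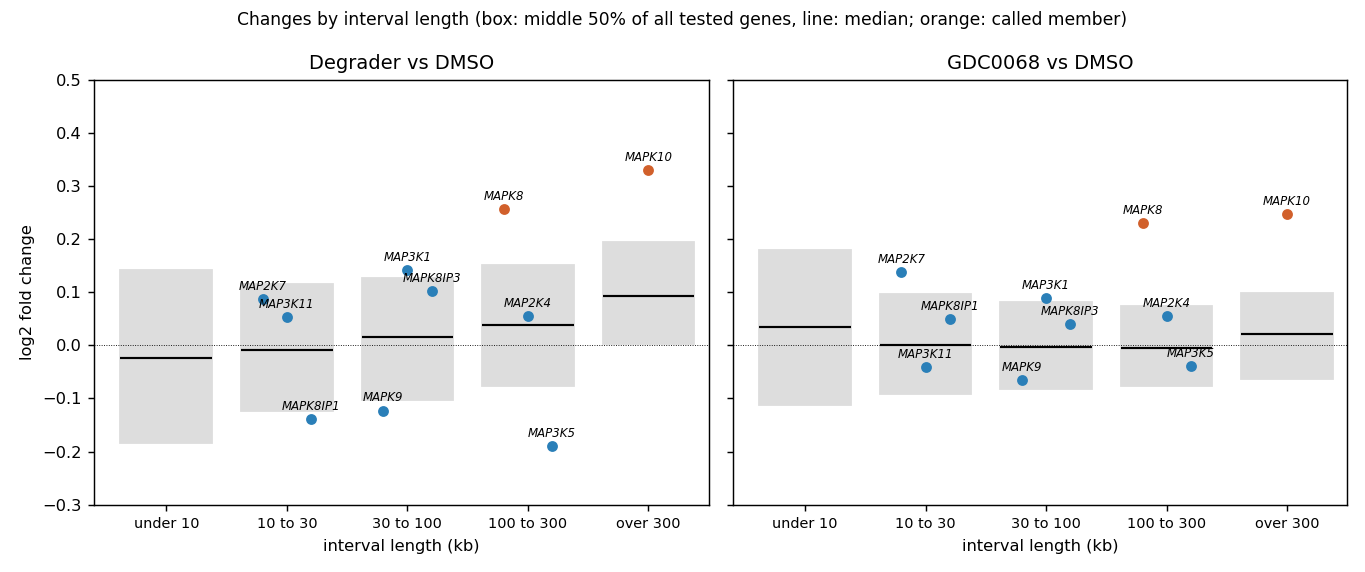
Log2 fold change against DMSO (vertical axis) by class of interval length in kb, with grey boxes for the middle 50% of all genes tested, black lines for their medians, and points for the JNK cascade genes (orange where called). Under Degrader the median goes from -0.02 in the shortest class to 0.09 in the longest, and MAPK8 and MAPK10 lie above the boxes under both drugs.

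The genes whose levels followed MAPK8 and MAPK10 most closely over the 6 libraries were found by Pearson's r of log2 CPM among 13896 other genes whose mean was 10 CPM or more. For MAPK8 they were AL157911.1 (r = 0.9987), NEK11 (0.9945), a NIMA-related kinase, and ATXN7L3B (0.9935). MAPK10 was followed most closely by AC010173.1 (0.9971), SWT1 (0.9967) and ZBED5 (0.9965). Of the genes compared, 238 had r above 0.95 with MAPK8 and 415 with MAPK10. The genes named also share the libraries and their depth with the members. MAPK8 and MAPK10 were taken because they were called, so r over the 6 libraries includes the difference between arms.

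Genes around the cascade were described through 5 further lists. For comparison, 15.3% of all genes were called with Degrader and 3.58% with GDC0068, or 30.7% and 17.8% with the replicate block. With GDC0068, 3972 of all 19902 genes tested had an unadjusted edgeR p under 0.05. The other upstream kinases (20 of 20 tested) had 6 called with Degrader, 3 higher and 3 lower (median log2 fold change -0.02), and 0 with GDC0068, where 7 had an unadjusted p under 0.05; the replicate block called 8 and 5. MAP3K3 (MEKK3), a kinase upstream of several MAP kinase branches, rose from 105.7 ± 5.4 CPM to 131.4 ± 4.8 with Degrader (0.32, SE 0.0560, edgeR adjusted p = 0.00383), and stood at 119.8 ± 5.3 with GDC0068. MAP3K6 (ASK2), the partner of ASK1, fell from 22.0 ± 0.44 CPM to 16.4 ± 0.56 CPM with Degrader (-0.42, SE 0.0901, edgeR adjusted p = 0.00989), and stood at 19.8 ± 1.2 with GDC0068. MAP3K9 (MLK1) stood at 138.9 ± 3.0 CPM in DMSO and 121.1 ± 1.2 with GDC0068 (-0.20, edgeR adjusted p = 0.0546). With Degrader it fell to 121.4 ± 5.7 CPM (-0.20, edgeR adjusted p = 0.0242). Without DMSO replicate 1 none of these 3 was called. MAP3K3 and MAP3K9 also lost their call without Degrader replicate 2, MAP3K6 without Degrader replicate 1 and MAP3K9 without DMSO replicate 2 (edgeR adjusted p up to 0.197).

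Of 16 scaffolds, adaptors and regulators tested, 1 was called higher and 3 lower with Degrader (median -0.04), and 0 with GDC0068, where 5 had an unadjusted p under 0.05; the replicate block called 7 and 4. All genes were called at 15.3% and 3.58% in these comparisons, or 30.7% and 17.8% with the block. An unadjusted edgeR p under 0.05 with GDC0068 was found for 3972 of all 19902 genes tested. CRK, an adaptor that links receptors to small GTPases, fell from 98.6 ± 2.7 CPM to 82.7 ± 0.44 with Degrader (-0.25, SE 0.0534, edgeR adjusted p = 0.00905). With GDC0068 CRK stood at 85.8 ± 4.5 CPM (-0.20, edgeR adjusted p = 0.0616). TAB2, which couples TAK1 to ubiquitin chains, rose from 115.3 ± 0.80 CPM to 135.5 ± 4.0 CPM with Degrader (0.23, SE 0.0618, edgeR adjusted p = 0.0267). With GDC0068 TAB2 stood at 130.9 ± 12.3 CPM (0.18, edgeR adjusted p = 0.127). GADD45A, a stress-induced activator of MAP3K4, fell from 14.5 ± 0.63 CPM to 11.4 ± 0.045 CPM with Degrader (-0.35, edgeR adjusted p = 0.0357) and stood at 14.2 ± 0.89 with GDC0068. DESeq2 did not call GADD45A with Degrader (adjusted p = 0.0802). The calls of TAB2 and GADD45A were lost without any one of the DMSO and Degrader libraries, and that of CRK without DMSO replicate 1 or either Degrader library (edgeR adjusted p up to 0.204).

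The lists of phosphatases and of transcription factors at the end of the cascade both had medians above 0. Of 8 phosphatases that act on JNK or its relatives, 3 were called with Degrader, 2 higher and 1 lower (median 0.13). With GDC0068 0 were called, and 2 had an unadjusted edgeR p under 0.05, as did 3972 of all 19902 genes tested. The block called 4 with Degrader and 2 with GDC0068. Of all genes, 15.3% and 3.58% were called in these comparisons, or 30.7% and 17.8% with the block. With GDC0068 the changes of DUSP10, DUSP16 and DUSP8 were 0.15, 0.07 and -0.18 (edgeR adjusted p = 0.387, 0.500 and 0.153). With Degrader DUSP10, a phosphatase of JNK and p38, rose from 23.2 ± 0.027 CPM to 29.0 ± 1.8 CPM (0.32, edgeR adjusted p = 0.0361). DUSP16 rose by 0.17 (edgeR adjusted p = 0.0396), and DUSP8 fell from 88.1 ± 5.4 CPM to 75.3 ± 4.6 CPM (-0.23, edgeR adjusted p = 0.0370). Each of these calls was lost without DMSO replicate 1 and without Degrader replicate 2 (edgeR adjusted p up to 0.255), and leaving out DMSO replicate 2 or Degrader replicate 1 also ended those of DUSP10 and DUSP16. DESeq2 did not call DUSP16 or DUSP8 (adjusted p = 0.120 and 0.0507).

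Of 11 transcription factors, 4 were called higher and 0 lower with Degrader (median 0.10) and 1 with GDC0068 (median 0.09), or 6 and 4 with the replicate block. Of all genes, 7.39% were called higher and 7.88% lower with Degrader and 3.58% were called with GDC0068, or 30.7% and 17.8% with the block. FOS, the AP-1 partner of JUN, stood at 11.5 and 12.7 CPM in DMSO, 18.5 and 16.9 with GDC0068, and 17.5 and 19.1 with Degrader. All treated libraries were above both controls, and FOS rose by 0.60 with Degrader (SE 0.102, edgeR adjusted p = 0.00292) and 0.55 with GDC0068 (SE 0.102, edgeR adjusted p = 0.0176). The Degrader call held in all 6 fits without a library, whereas the GDC0068 call was lost without either DMSO library or either GDC0068 library (edgeR adjusted p up to 0.155). With GDC0068 ATF3 changed by 0.05 (edgeR adjusted p = 0.655) and JUND by 0.32 (edgeR adjusted p = 0.0628). ATF3 rose from 105.7 ± 5.0 CPM to 128.2 ± 2.9 with Degrader (0.28, edgeR adjusted p = 0.00528), and JUND from 71.5 ± 0.031 CPM to 90.1 ± 3.0 CPM (0.33, edgeR adjusted p = 0.0228). Both calls were lost without DMSO replicate 1 and without Degrader replicate 2, and that of JUND also without DMSO replicate 2 (edgeR adjusted p up to 0.141). JUN itself, the substrate after which the kinases are named, stood at 85.4 ± 6.6 CPM in DMSO, 90.7 ± 2.5 with GDC0068 and 82.8 ± 4.0 with Degrader (-0.05, edgeR adjusted p = 0.671).

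The parallel ERK and p38 branches were taken as neighbours of the cascade. Of their 15 kinases, 3 were called with Degrader, 1 higher and 2 lower (median -0.01), and 0 with GDC0068 (median -0.03). With GDC0068, 4 had an unadjusted edgeR p under 0.05, as did 3972 of all 19902 genes tested. The block called 4 in each comparison. Of all genes, 15.3% and 3.58% were called without the block and 30.7% and 17.8% with it. With Degrader MAP2K1 (MEK1) fell from 74.7 ± 2.0 CPM to 62.5 ± 1.2 CPM (-0.26, SE 0.0519, edgeR adjusted p = 0.00752) and MAP2K2 (MEK2) from 113.6 ± 1.1 CPM to 98.0 ± 2.3 CPM (-0.21, SE 0.0474, edgeR adjusted p = 0.0116). MAP2K5, the kinase of the ERK5 branch, rose from 144.6 ± 2.3 CPM to 169.6 ± 2.0 CPM (0.23, SE 0.0528, edgeR adjusted p = 0.0137). With GDC0068 the changes of MAP2K1, MAP2K2 and MAP2K5 were -0.19, -0.16 and 0.12 (edgeR adjusted p = 0.0689, 0.0897 and 0.247). MAPK14 (p38 alpha) differed by 0.01 with Degrader and 0.03 with GDC0068 and was not called. The calls of the MEK genes were lost without DMSO replicate 1 and without Degrader replicate 2, and that of MAP2K5 without any one of the 4 libraries compared (edgeR adjusted p up to 0.123). Between the drugs none of the 70 genes of the 5 lists was called by edgeR without the block, and 7 were called with it, against 0.266% and 10.4% of all genes. Without the block 9 had an unadjusted edgeR p under 0.05, as did 2811 of all 19902 genes tested.

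**Figure D5:**
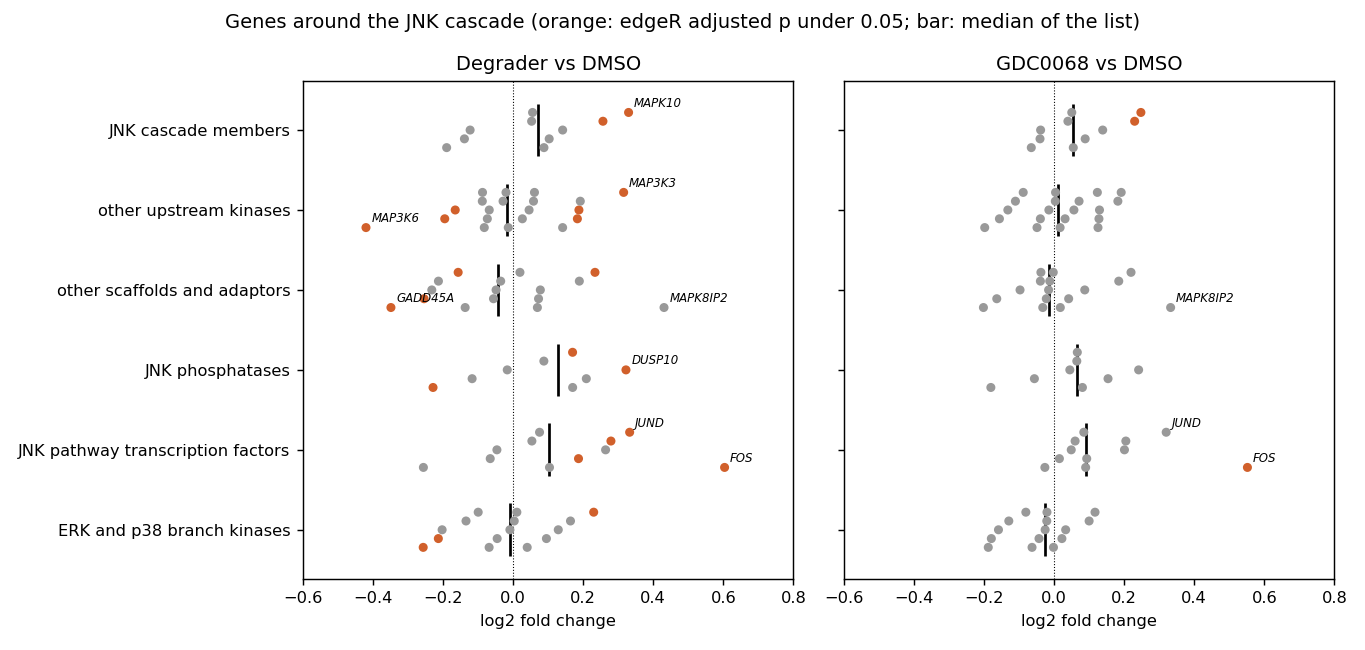
Log2 fold change against DMSO (horizontal axis) of the genes in the JNK cascade and in 5 lists around it, with a point per gene (orange where called) and a bar at the median of the list. With GDC0068 (right) the called genes are MAPK8, MAPK10 and FOS, and with Degrader (left) called genes lie on both sides of 0 in 4 of the 5 further lists, with all 4 transcription factors above it.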

How the data were processed

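Raw counts per gene interval were deposited by the authors as 1 table, and whole numbers with differing totals show that they were not normalised. The submitters' processing notes name cutadapt 1.14, Bowtie 1.2.2, SAMtools 1.3.1, HISAT2 2.2.1, limma and the builds hg38, GRCh38 and dm3, without saying what each was for. The counting tool, strand, duplicates and scaling to a second genome are not given in the sources used here, so changes are relative to the bulk of genes. Coordinates are the table's, with starts counted from 1.

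The members and the lists were chosen with earlier results of these data known. All 6 libraries entered 1 edgeR 4.0.16 quasi-likelihood fit in R 4.3.3 with a term per arm, after filterByExpr (minimum count 10, minimum total 15) removed 431 intervals and TMM scaling (factors 0.997 to 1.003). The p-values were adjusted by Benjamini-Hochberg over 19902 genes. Every member was reported, and up to 3 called genes per list and comparison with the smallest adjusted p; JUN and MAPK14 were named after their values were seen. The fit was tested on simulated data. DESeq2 1.42.0 and limma 3.58.1 (voom) were among the alternatives. Same-numbered libraries deviated together between arms (correlations of 0.174, 0.205 and 0.219 across genes), and the replicate number was therefore also entered as a block. Replicates differed by more than counting noise (chi-square per degree of freedom 5.01 to 6.95).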

Additional observations from a re-analysis of the deposited data

How the results depend on the processing

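Each of the 30 member changes was recomputed under 13 alternatives, giving 390 values, of which 378 kept their sign. With the replicate block entered, under Degrader 6 members and 6114 genes were called, under GDC0068 3540 genes, and between the drugs 2065 genes. It changed no call of a member other than those named in the text. The MAPK8 call under GDC0068 was lost with RLE size factors, without the filter on low counts, with DESeq2 and with only the 4 libraries compared, each leaving 1 member called (adjusted p of 0.0507, 0.0519, 0.0719 and 0.0727). Between the drugs, DESeq2 called 141 genes, robust estimation 116 and the 4 libraries compared 23, in place of 53. Leaving out 1 library at a time gave 1 to 2 members and 931 to 3217 genes under Degrader, 0 to 1 members and 37 to 546 genes under GDC0068, and 5 to 63 genes between the drugs. The changes that turned sign were all small ones with a library left out. Under Degrader MAP2K7 ranged from -0.0016 to 0.16 and MAP3K11 from -0.014 to 0.12. Under GDC0068 MAP3K5 ranged from -0.11 to 0.016, MAP3K11 from -0.11 to 0.027, MAPK8IP1 from -0.00043 to 0.090 and MAPK8IP3 from -0.0065 to 0.075. Between the drugs MAPK8 ranged from -0.0066 to 0.071, MAPK9 from -0.13 to 0.014, MAP2K4 from -0.010 to 0.015 and MAP2K7 from -0.13 to 0.031. The cause was not tested. There were 2 libraries per arm, and counting errors at the lowest count of each member were 1.27% to 3.54%. How much of each interval comes from counting and how much from the spread between libraries was not tested.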

Other observations

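Between the drugs, the fit with the replicate block called 7 of the 70 genes of the 5 further lists, where it called 10.4% of all genes. The fit without it called 0 of the 70, where it called 0.266% of all genes. ATF3, a stress-induced transcription factor, was higher under Degrader than with GDC0068 (128.2 ± 2.9 against 109.4 ± 3.6 CPM, log2 fold change 0.23, edgeR adjusted p = 3.42e-04 with the block). JUNB, an AP-1 subunit, was lower (50.5 ± 0.23 against 60.7 ± 0.50 CPM, -0.27, edgeR adjusted p = 8.61e-04 with the block). RAC1, a small GTPase upstream of the cascade, was higher by 0.17 (edgeR adjusted p = 0.00326 with the block), and GADD45A was lower with -0.32 (edgeR adjusted p = 0.0325 with the block). MAP3K3, MAP2K5 and JUN were the other 3, with 0.13, 0.11 and -0.13. These 7 genes were singled out after their values were seen. Without the block, ATF3, JUNB, RAC1 and GADD45A had edgeR adjusted p-values of 0.0961, 0.0904, 0.151 and 0.191. MAPK8IP2 (JIP2), a scaffold best known from neurons, stood at 5.82 ± 0.70 CPM in DMSO, 7.35 ± 0.49 with GDC0068 and 7.88 ± 0.60 with Degrader, and its change with Degrader (0.43) had an edgeR adjusted p of 0.0565 without the block and 0.0131 with it.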
